A study of Mus musculus with 6 samples.

Results

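Collagen genes were examined in retinas sampled whole at postnatal day 240, 3 from WT and 3 from Wfs1-KO mice. A collagen gene was defined by its symbol, the letters Col and a type number followed by a and a chain number, and 44 of the 55376 genes in the table met this definition. They comprised 11 fibrillar collagens, the 6 chains of type IV collagen (Col4), which is the collagen of basement membranes, Col18a1, and 26 other collagens. The Wfs1-KO mice carried a targeted deletion of exon 8 of Wfs1, labelled Wfs1-/-, and the WT mice carried no targeted allele. Each retina came from a different mouse. The sample labels give a C57x129 strain for both genotypes, whereas the methods of the study name C57BL/6 J. A whole retina is a mixture of cells, so that in these bulk samples fewer cells of a type and less RNA per cell cannot be told apart.

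Collagens are secreted as trimers of 3 chains, and the chains of a type are often made from different genes. Fibrillar collagens (types I, II, III, V, XI, XXIV and XXVII) form the fibrils of connective tissue, type IV collagen forms the sheet of basement membranes, and fibril-associated collagens sit on the surface of fibrils. In the eye, basement membranes line the vitreous side of the retina, the retinal vessels and the pigment epithelium, types II, IX and XI make up the fibrils of the vitreous, and type I collagen is the bulk of sclera and corneal stroma. The neural retina itself holds little fibrillar collagen, so that collagen RNA in a dissected retina can come from glia and neurons, from vessels, or from neighbouring tissue carried along.

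The genes of type IV collagen lie in head-to-head pairs, and the short stretch between the starts of a pair is shown for both autosomal pairs, because the chains of a pair are compared below. Positions are those of GENCODE M21 on mm10, and the sequences are RefSeq's on GRCm38.p6, the same build. Col4a1 (chromosome 8, 11198423 to 11312826, minus strand) and Col4a2 (chromosome 8, 11312805 to 11449287, plus strand) have annotated starts 21 bases apart and share the 22 bases in capitals as first exon sequence on opposite strands. Col4a4 (chromosome 1, 82448423 to 82586849, minus strand) and Col4a3 (chromosome 1, 82586921 to 82722059, plus strand) have starts 72 bases apart, and the 73 bases in capitals run from one start to the other.
Col4a1/Col4a2, chr8:11312801-11312830, minus strand: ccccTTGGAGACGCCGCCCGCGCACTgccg
Col4a4/Col4a3, chr1:82586845-82586925, minus strand: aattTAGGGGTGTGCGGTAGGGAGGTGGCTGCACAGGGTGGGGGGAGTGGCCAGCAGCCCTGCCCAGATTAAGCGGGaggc

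The first of these stretches holds 1 match to GGGCGG, the core of a GC box, on either strand and no match to CCAAT or TATAAA. The second holds no match to the 3 motifs. In RefSeq windows of 300 bases, which begin upstream of a start and end within the transcript, GGGCGG was found on either strand in 35.7% of the 32851 windows of all genes, CCAAT in 37.4% and TATAAA in 13.6%. Of the 38 windows that belong to 35 of the collagen genes, 23 (60.5%) held GGGCGG, 13 (34.2%) CCAAT and 5 (13.2%) TATAAA. The motifs have different letters, but a window can hold more than 1 of them. These counts describe letters in the windows and say nothing of a factor bound there. Col4a5 and Col4a6, the pair on chromosome X, have starts 1309 bases apart.

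Reads were counted on the exons of each gene. The 6 libraries held between 17916885 and 101334381 counts, so that 3 counts, taken as the floor, correspond to between 0.0291 and 0.170 CPM (counts relative to library size). The library of Wfs1-KO replicate 2 stood apart, with a mean correlation to the others of 0.918 across genes, against 0.962 to 0.971 for the other 5. For this reason fold changes are given with and without that retina. The targeted gene followed the labels, at 16.2 to 18.5 RPKM in WT and at 2.54, 0.238 and 3.03 RPKM in mutant replicates 1, 2 and 3. The genotypes were not matched for sex, since Ddx3y, a gene of the Y chromosome, reached 1137 counts in WT replicate 3 but no more than 2 in any other retina. The summed level of 7 rod photoreceptor genes was between 15632 and 21213 RPKM in every retina, so that the defining cell of the retina was abundant in each sample.

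Levels are given as RPKM, counts divided by exon length and by the TMM-scaled library size, which allows genes of different length to be set side by side. By the mean of the 6 retinas, 2 collagen genes exceeded 10 RPKM, 21 exceeded 1 RPKM and 5 were under 0.1 RPKM. All collagens together summed to 105.2, 79.0 and 105.5 RPKM in WT replicates 1, 2 and 3, and to 99.4, 106.7 and 89.1 RPKM in Wfs1-KO replicates 1, 2 and 3. The genotypes overlapped in this sum. The 2 leading genes, Col23a1 and Col6a1, were not fibrillar collagens, whereas the next, Col2a1, was. Col23a1 and Col6a1 together held between 26.1% and 35.0% of the summed collagen level, depending on the retina.

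**Figure D1:**
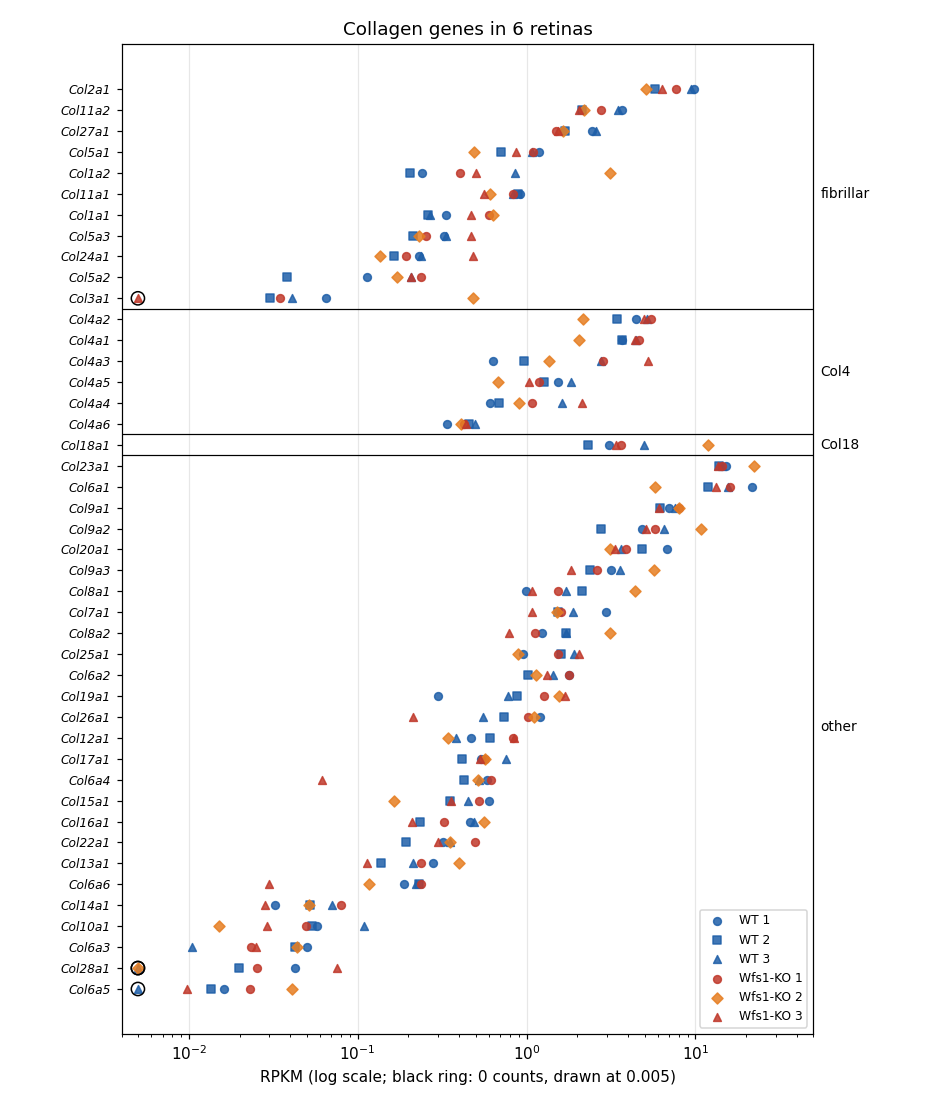
RPKM of the 44 collagen genes in each of the 6 retinas on a log axis, grouped as fibrillar, Col4, Col18 and other and ordered by mean level within a group, with WT in blue, Wfs1-KO in red and Wfs1-KO replicate 2 as orange diamonds. Col23a1 and Col6a1 lie furthest right, and the orange diamond lies apart from the other 5 points for Col18a1, Col1a2 and Col3a1.

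Col23a1, a transmembrane collagen shed from the cell surface, had the highest mean level. It was at 15.1, 13.8 and 14.3 RPKM in WT and at 14.3, 22.1 and 13.7 RPKM in mutant replicates 1, 2 and 3. Leaving out Wfs1-KO replicate 2, the retinas lay close together, and the log2 fold change of Wfs1-KO over WT was 0.21 ± 0.22 (SE) with that retina and -0.05 ± 0.13 (SE) without it. Col6a1, a chain of the beaded filaments around cells, was second with 21.7, 11.9 and 15.6 RPKM in WT and 16.0, 5.80 and 13.2 RPKM in the mutants. Col2a1, the main fibrillar collagen of vitreous and cartilage, was next with 9.76, 5.80 and 9.47 RPKM in WT and 7.70, 5.07 and 6.33 RPKM in the mutants. The genotypes overlapped for these 3 genes. Col6a1 and Col2a1 were both lowest in Wfs1-KO replicate 2, and in WT replicate 2 Col2a1 was lower than in 2 of the 3 mutant retinas. Within the WT retinas alone the tested collagens differed between the highest and lowest retina by a median factor of 1.75, so that neighbours in the order of levels often did not differ beyond the spread.

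The comparison between genotypes used the quasi-likelihood test of edgeR over 18547 genes that passed a filter on low counts. Of the 44 collagens, 41 passed the filter. Col10a1, Col28a1 and Col6a5 did not, with at most 0.109 RPKM in any retina. None of the 41 had an adjusted p under 0.05 (edgeR, Benjamini-Hochberg adjustment over all tested genes, adjusted p between 0.979 and 0.998), where 0.0108% of all tested genes passed. Wfs1 itself did not pass in this fit, with a log2 fold change of -3.15 ± 0.77 (SE; edgeR adjusted p = 0.979). The lack of a call here therefore does not show that a gene was unchanged. Without Wfs1-KO replicate 2 again 0 of 41 passed (adjusted p between 0.527 and 0.997), where 0.125% of 19178 genes passed. DESeq2 and limma-voom on all 6 retinas also called 0 collagens.

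At an unadjusted p under 0.05, 2 collagens were higher in mutant retinas, Col19a1 and Col1a1, which is 4.88% of the 41, against 2.24% of all tested genes. By the same rule 2 were lower, Col27a1 and Col4a5, again 4.88%, against 0.566% of all tested genes. Without Wfs1-KO replicate 2 there were 4 higher, Col12a1, Col19a1, Col1a1 and Col4a3 (9.76%, against 2.8% of all tested genes), and 4 lower, Col27a1, Col4a5, Col7a1 and Col8a2 (9.76%, against 2.39%). These shares rest on 2 to 4 genes each, none of which passed the adjusted threshold. The median log2 fold change of the 41 collagens was 0.015, with 21 above 0, and -0.035 without Wfs1-KO replicate 2. Over all tested genes the median was 0.023, and -0.00038 without that retina. The centre of the collagens thus lay close to that of all genes.

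**Figure D2:**
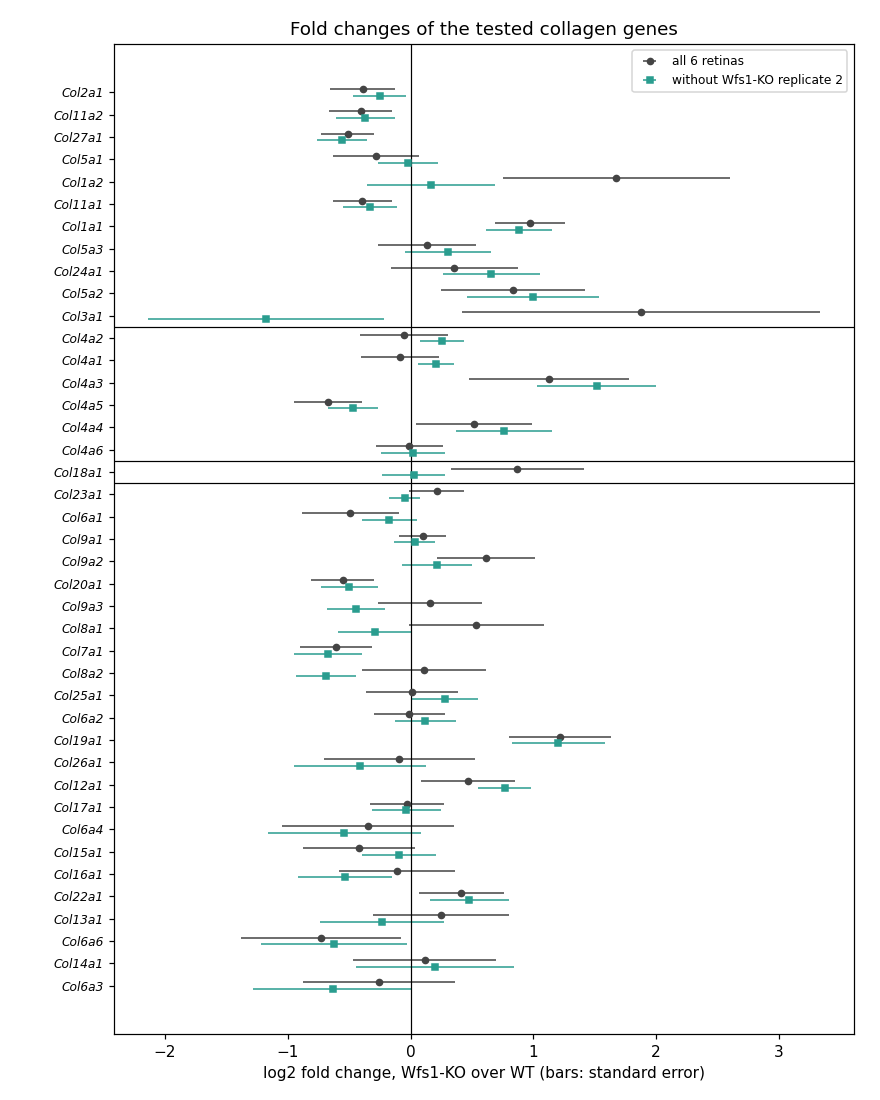
Log2 fold change of Wfs1-KO over WT for the 41 tested collagen genes, with bars of 1 standard error, from all 6 retinas (dark circles) and without Wfs1-KO replicate 2 (green squares). Col19a1 and Col1a1 lie to the right of 0 and Col27a1 and Col4a5 to the left in both fits, whereas Col18a1, Col1a2, Col3a1 and Col8a2 move with the retina left out.

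Among the 11 fibrillar collagens Col2a1 had the highest mean level, at 7.36 RPKM, and Col3a1, the chain of type III collagen, the lowest, at 0.109 RPKM. Summed fibrillar levels were 19.3, 12.1 and 19.4 RPKM in WT and 15.6, 14.8 and 13.5 RPKM in mutant replicates 1, 2 and 3. Of the 11 genes, 1 was higher and 1 lower at an unadjusted p under 0.05, where 2.24% of all tested genes were higher and 0.566% lower, with a median log2 fold change of 0.13, and of -0.018 without Wfs1-KO replicate 2.

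Col1a1, which encodes the first chain of type I collagen, lies on chromosome 11 from 94936224 to 94953042. It had 0.335, 0.262 and 0.268 RPKM in WT and 0.602, 0.631 and 0.471 RPKM in mutant replicates 1, 2 and 3. Every mutant retina was above every WT retina, with Wfs1-KO replicate 2 close to Wfs1-KO replicate 1. Its mean was 0.288 ± 0.0405 RPKM (SD, n = 3) in WT and 0.568 ± 0.0853 RPKM (SD, n = 3) in the mutants, which gave a log2 fold change of 0.97 ± 0.28 (SE; edgeR adjusted p = 0.979). Without Wfs1-KO replicate 2 it was 0.88 ± 0.27 (SE; edgeR adjusted p = 0.633).

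Col1a2, which encodes the partner chain of type I collagen on chromosome 6, did not follow Col1a1. It had 0.242, 0.204 and 0.849 RPKM in WT and 0.406, 3.11 and 0.505 RPKM in mutant replicates 1, 2 and 3. Wfs1-KO replicate 2 was 3.67 times the highest other retina, and WT replicate 3 was the highest of the rest. The ratio of Col1a1 to Col1a2 was accordingly 0.203 in Wfs1-KO replicate 2 and 0.316 in WT replicate 3, and between 0.932 and 1.48 in the other 4 retinas. Its log2 fold change of 1.68 ± 0.92 (SE) became 0.17 ± 0.52 (SE) without Wfs1-KO replicate 2. Col3a1, the chain of type III collagen of skin and vessel walls, was at 114 counts in Wfs1-KO replicate 2 and at 0 to 24 counts elsewhere, and its log2 fold change of 1.88 ± 1.46 (SE) turned to -1.18 ± 0.96 (SE).

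Col27a1, a fibrillar collagen of cartilage, lies on chromosome 4 from 63214004 to 63334991. It had 2.43, 1.69 and 2.59 RPKM in WT and 1.50, 1.65 and 1.54 RPKM in mutant replicates 1, 2 and 3. No mutant retina reached the WT range, although WT replicate 2 was only slightly above Wfs1-KO replicate 2. The mean was 2.23 ± 0.481 RPKM (SD, n = 3) in WT and 1.57 ± 0.0771 RPKM (SD, n = 3) in mutant retinas. The log2 fold change was -0.51 ± 0.22 (SE; edgeR adjusted p = 0.979), and -0.56 ± 0.20 (SE; edgeR adjusted p = 0.800) without Wfs1-KO replicate 2.

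The type XI chains, which nucleate type II fibrils, were lower on average in mutant retinas without passing at an unadjusted p. Col11a1 had 0.909, 0.888 and 0.836 RPKM in WT and 0.835, 0.608 and 0.563 RPKM in the mutants, so that Wfs1-KO replicate 1 lay just under the lowest WT retina. Col11a2 had 3.69, 2.13 and 3.47 RPKM in WT and 2.75, 2.20 and 2.05 RPKM in the mutants, and the genotypes overlapped. Their log2 fold changes were -0.39 ± 0.24 (SE) and -0.41 ± 0.26 (SE), beside -0.39 ± 0.26 (SE) for Col2a1. Without Wfs1-KO replicate 2 the values were -0.33 ± 0.22, -0.37 ± 0.24 and -0.25 ± 0.22 (SE) for Col11a1, Col11a2 and Col2a1. The type V chains Col5a1, Col5a2 and Col5a3, which control fibril diameter, and Col24a1 overlapped between genotypes, with log2 fold changes between -0.28 and 0.83. Leaving out Wfs1-KO replicate 2 they were between -0.018 and 1.00, with Col5a2 the highest of them at 1.00 ± 0.54 (SE). For Col5a2, Wfs1-KO replicate 3 was level with WT replicate 3.

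Over all 41 tested collagens, every mutant retina was above every WT retina for 2 genes, Col19a1 and Col1a1 (4.88%, against 5.01% of all tested genes). Every mutant retina was below every WT retina for 3 genes, Col11a1, Col27a1 and Col4a5 (7.32%, against 3.94%). The first share is that of the background, and the second differs from it by 1 or 2 genes.

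**Figure D3:**
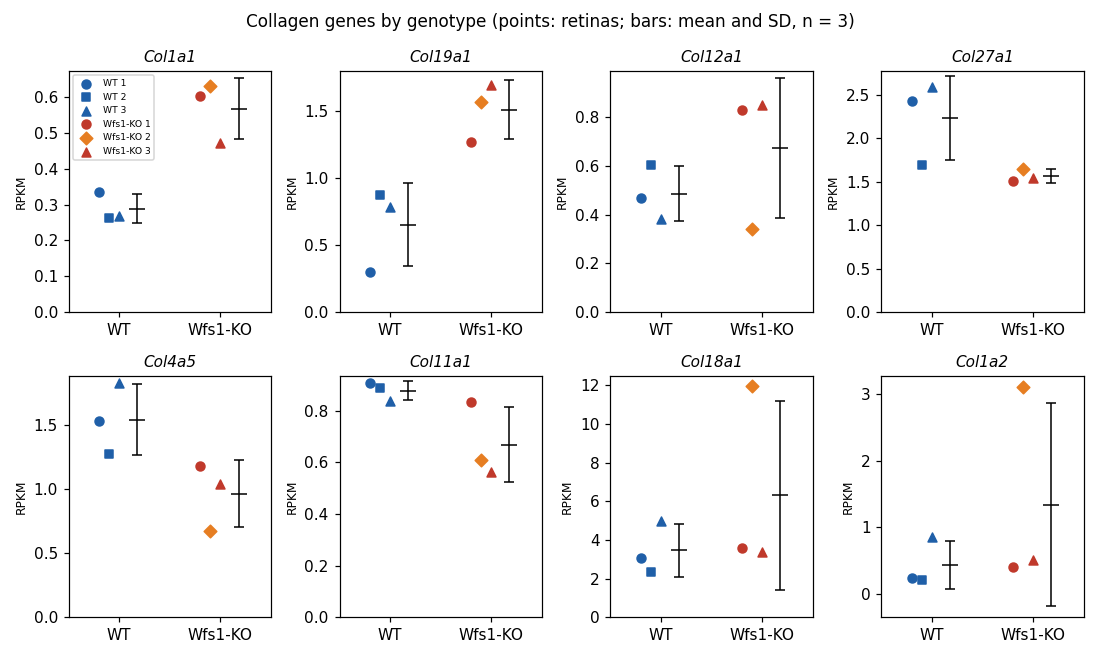
RPKM of 8 collagen genes by genotype, with a point for each retina and the mean and SD of 3 retinas as bars, on linear axes. Wfs1-KO lies above WT without overlap for Col1a1 and Col19a1 and below it for Col27a1, Col4a5 and Col11a1, while for Col18a1 and Col1a2 the orange diamond of Wfs1-KO replicate 2 sets the mutant mean.

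The 6 chains of type IV collagen differed in level by a factor of about 10, from Col4a2 with a mean of 4.27 RPKM to Col4a6 with 0.428 RPKM. Together they summed to 11.2, 10.5 and 16.3 RPKM in WT and to 15.6, 7.55 and 18.2 RPKM in mutant replicates 1, 2 and 3. Wfs1-KO replicate 2 was thus the lowest retina in this group, in contrast to Col18a1. None was higher and 1, Col4a5, was lower at an unadjusted p under 0.05, where 2.24% of all tested genes were higher and 0.566% lower, with a median log2 fold change of -0.032, and of 0.23 without Wfs1-KO replicate 2.

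Col4a1 and Col4a2, whose chains form the network found in nearly all basement membranes, were the most abundant. Col4a1 had 3.65, 3.66 and 4.43 RPKM in WT and 4.66, 2.04 and 4.38 RPKM in mutant replicates 1, 2 and 3. Col4a2 had 4.47, 3.42 and 5.17 RPKM in WT and 5.48, 2.16 and 4.95 RPKM in the mutants. Both were lowest in Wfs1-KO replicate 2, and Wfs1-KO replicate 1 was the highest of the 6 retinas for both, while Wfs1-KO replicate 3 lay within the WT range. Their log2 fold changes were -0.08 ± 0.32 (SE) and -0.05 ± 0.36 (SE), and 0.21 ± 0.15 (SE) and 0.26 ± 0.18 (SE) without that retina.

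The ratio of these chains, which share the first of the promoter stretches printed above, was 0.817, 1.07 and 0.856 in WT and 0.850, 0.944 and 0.886 in the mutants. Across the 6 retinas it varied by a factor of 1.31, while Col4a1 varied by 2.29 and Col4a2 by 2.54. The ratio was 0.914 ± 0.136 (SD, n = 3) in WT and 0.893 ± 0.0471 (SD, n = 3) in mutant retinas, so that the difference was within the spread. Of the 5 chain ratios examined it was the one that varied least.

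Col4a3, Col4a4 and Col4a5 form a separate network, known from the kidney filter, lens capsule and inner limiting membrane, and are the genes of Alport syndrome. Col4a3 had 0.630, 0.961 and 2.77 RPKM in WT and 2.82, 1.36 and 5.22 RPKM in mutant replicates 1, 2 and 3. WT replicate 3 was above Wfs1-KO replicate 2 and close to Wfs1-KO replicate 1, so that the genotypes overlapped. Its log2 fold change was 1.13 ± 0.65 (SE; edgeR adjusted p = 0.979), and 1.52 ± 0.48 (SE; edgeR adjusted p = 0.673) without Wfs1-KO replicate 2. The value also moved with other retinas, to 0.54 without Wfs1-KO replicate 3 and to 1.97 without WT replicate 3. On the exons of Col4a3, 563 bases overlap an antisense gene, and the library kit does not mark strand, so that reads there cannot be told apart.

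Col4a4 had 0.608, 0.688 and 1.61 RPKM in WT and 1.08, 0.907 and 2.13 RPKM in mutant replicates 1, 2 and 3. As for Col4a3, WT replicate 3 and Wfs1-KO replicate 3 were the highest of their genotype. The log2 fold change was 0.52 ± 0.47 (SE), and 0.76 ± 0.39 (SE) without Wfs1-KO replicate 2. The ratio of Col4a3 to Col4a4 was 1.04, 1.40 and 1.72 in WT and 2.60, 1.51 and 2.45 in the mutants, with WT replicate 3 above Wfs1-KO replicate 2. The ratios are given as a description, and an exact permutation test of 3 against 3 retinas could not give a two-sided p below 0.1.

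Col4a5 lies on chromosome X from 141475385 to 141689234, beside Col4a6. It had 1.53, 1.27 and 1.82 RPKM in WT and 1.18, 0.674 and 1.04 RPKM in mutant replicates 1, 2 and 3. No mutant retina reached the lowest WT retina, with Wfs1-KO replicate 2 the lowest and WT replicate 3, the retina with Y-linked counts, the highest. The mean was 1.54 ± 0.275 RPKM (SD, n = 3) in WT and 0.965 ± 0.263 RPKM (SD, n = 3) in the mutants, with a log2 fold change of -0.67 ± 0.28 (SE; edgeR adjusted p = 0.979) and of -0.47 ± 0.20 (SE; edgeR adjusted p = 0.930) without Wfs1-KO replicate 2. Its partner in network and neighbour Col4a6 did not move with it, at 0.340, 0.455 and 0.495 RPKM in WT and 0.425, 0.410 and 0.441 RPKM in the mutants (log2 fold change -0.01 ± 0.27, SE, and 0.02 ± 0.26 without Wfs1-KO replicate 2).

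**Figure D4:**
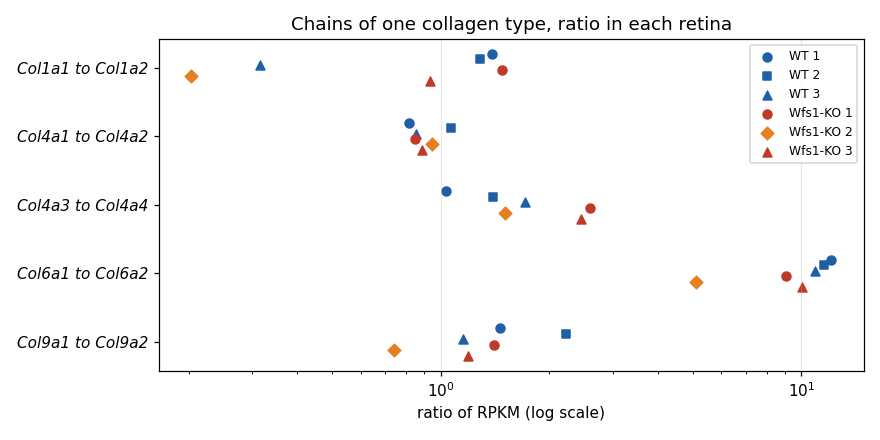
Ratio of the RPKM of 2 chains of a collagen type in each retina on a log axis, for 5 pairs of chains, with symbols as in the plot of levels. The Col4a1 to Col4a2 ratio stays between 0.817 and 1.07, while the Col1a1 to Col1a2 ratio falls to 0.203 in Wfs1-KO replicate 2 and 0.316 in WT replicate 3.

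Col18a1, the basement membrane proteoglycan whose end fragment is endostatin, lies on chromosome 10 from 77052178 to 77166548. It had 3.09, 2.33 and 4.96 RPKM in WT and 3.61, 11.9 and 3.39 RPKM in mutant replicates 1, 2 and 3. Wfs1-KO replicate 2 was 2.41 times the highest other retina, and the other mutant retinas lay within the WT range. The log2 fold change was 0.87 ± 0.54 (SE; edgeR adjusted p = 0.979), and 0.03 ± 0.26 (SE; edgeR adjusted p = 0.996) without that retina. Col15a1, the other member of the same structural class, was instead lowest in Wfs1-KO replicate 2, with 0.165 RPKM against 0.352 to 0.597 RPKM in the other 5.

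The 26 other collagens included the genes of fibril-associated collagens, of which Col9a1, Col9a2 and Col9a3 encode the 3 chains of type IX collagen on the surface of vitreous fibrils. Col9a1 had 7.00, 6.13 and 7.56 RPKM in WT and 8.05, 8.02 and 6.07 RPKM in mutant replicates 1, 2 and 3, and varied by a factor of 1.33 over the 6 retinas. Col9a2 had 4.81, 2.76 and 6.56 RPKM in WT and 5.73, 10.8 and 5.10 RPKM in the mutants. Col9a3 had 3.18, 2.39 and 3.58 RPKM in WT and 2.62, 5.72 and 1.83 RPKM in the mutants. Col9a2 and Col9a3 were thus highest in Wfs1-KO replicate 2 and Col9a1 was not, and the ratio of Col9a1 to Col9a2 was 0.744 in that retina and 1.15 to 2.22 in the others. Their log2 fold changes were 0.10 ± 0.19 (SE), 0.62 ± 0.40 (SE) and 0.16 ± 0.42 (SE), and 0.03, 0.21 and -0.44 without Wfs1-KO replicate 2. Of the exons of Col9a3, 234 bases overlap Tcfl5 on the other strand.

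Col19a1, a fibril-associated collagen of basement membrane zones, lies on chromosome 1 from 24261890 to 24587472. It had 0.299, 0.873 and 0.782 RPKM in WT and 1.26, 1.56 and 1.69 RPKM in mutant replicates 1, 2 and 3. The genotypes did not overlap, and WT replicate 1 was the lowest by far. The mean was 0.651 ± 0.308 RPKM (SD, n = 3) in WT and 1.51 ± 0.219 RPKM (SD, n = 3) in mutant retinas. Its log2 fold change of 1.22 ± 0.42 (SE; edgeR adjusted p = 0.979) was 1.20 ± 0.38 (SE; edgeR adjusted p = 0.661) without Wfs1-KO replicate 2. The difference was thus about as large without that retina. The gene lies near Col9a1 on the same chromosome, which did not differ between genotypes beyond its spread.

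Col12a1, which binds the surface of type I fibrils, lies on chromosome 9 from 79598991 to 79718831. It had 0.468, 0.605 and 0.383 RPKM in WT and 0.827, 0.341 and 0.848 RPKM in mutant replicates 1, 2 and 3. Wfs1-KO replicate 2 was the lowest of all 6 retinas and the other mutant retinas were the highest. The log2 fold change of 0.47 ± 0.38 (SE; edgeR adjusted p = 0.979) became 0.77 ± 0.21 (SE; edgeR adjusted p = 0.527) without it. Col20a1, another fibril-associated collagen, had 6.77, 4.81 and 3.62 RPKM in WT and 3.90, 3.13 and 3.35 RPKM in the mutants, with 1 overlap, between WT replicate 3 and Wfs1-KO replicate 1 (log2 fold change -0.55 ± 0.26, SE, and -0.50 ± 0.23 without Wfs1-KO replicate 2). Col14a1, Col16a1 and Col22a1 had log2 fold changes between -0.11 and 0.41, and between -0.53 and 0.48 without Wfs1-KO replicate 2.

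Type VI collagen, a filament linking cells to their matrix, was represented by Col6a1 and Col6a2, while Col6a3 was under 0.1 RPKM in every retina. The ratio of Col6a1 to Col6a2 was 12.1, 11.6 and 10.9 in WT and 9.04, 5.11 and 10.1 in mutant replicates 1, 2 and 3. The 3 lowest ratios were thus those of the mutants, a difference that was not tested. Col6a1 alone had a log2 fold change of -0.49 ± 0.39 (SE), and of -0.17 ± 0.22 (SE) without Wfs1-KO replicate 2, and Col6a2 one of -0.01 ± 0.29 (SE), and of 0.12 ± 0.25 (SE) without it. The 5 tested type VI chains had a median log2 fold change of -0.35, with Col6a3, Col6a4 and Col6a6 at -0.26, -0.35 and -0.73. The median was -0.54 without Wfs1-KO replicate 2. Col6a4 and Col6a6 were at 0.0616 and 0.0297 RPKM in Wfs1-KO replicate 3, the lowest of the 6 retinas for both.

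Col7a1, the collagen of anchoring fibrils under epithelia, had 2.95, 1.54 and 1.89 RPKM in WT and 1.61, 1.51 and 1.08 RPKM in mutant replicates 1, 2 and 3. Wfs1-KO replicate 1 was above WT replicate 2, so that the genotypes overlapped. Its log2 fold change was -0.61 ± 0.29 (SE; edgeR adjusted p = 0.979), and -0.67 ± 0.28 (SE; edgeR adjusted p = 0.879) without Wfs1-KO replicate 2. Without WT replicate 1, the highest retina, it was -0.30.

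Col8a1 and Col8a2 form the lattice under corneal endothelium and also occur in vessels. Col8a1 had 0.990, 2.14 and 1.71 RPKM in WT and 1.54, 4.40 and 1.08 RPKM in mutant replicates 1, 2 and 3. Col8a2 had 1.24, 1.70 and 1.72 RPKM in WT and 1.13, 3.12 and 0.786 RPKM in the mutants. Both were highest in Wfs1-KO replicate 2, and Col8a2 was lower in each of the other mutant retinas than in any WT retina. The direction for Col8a2 therefore depended on that retina, with a log2 fold change of 0.11 ± 0.50 (SE) in all 6 and of -0.69 ± 0.24 (SE; edgeR adjusted p = 0.783) without it. For Col8a1 the values were 0.54 ± 0.55 (SE) and -0.29 ± 0.30 (SE).

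The other transmembrane collagens, Col13a1, Col17a1 and Col25a1, overlapped between genotypes, with log2 fold changes of 0.25, -0.03 and 0.01, and of -0.23, -0.03 and 0.28 without Wfs1-KO replicate 2. Col17a1 belongs to the junctions of epithelia with their basement membrane, and Col25a1 is made by neurons. Col26a1 was also without a difference beyond its spread (log2 fold change -0.09 ± 0.61, SE, and -0.41 ± 0.54 without Wfs1-KO replicate 2).

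Wfs1-KO replicate 2 was the highest of the 6 retinas for 11 of the 41 tested collagens (26.8%), against 38.4% of all tested genes, and the lowest for another 11 (26.8%), against 36.8%. It was more than 2 times the highest other retina for 4 collagens, Col18a1, Col1a2, Col3a1 and Col8a1 (9.76%, against 9.82% of all tested genes). It was at less than 50% of the lowest other retina for 2, Col15a1 and Col6a1 (4.88%, against 7.5%). The collagens as a list therefore held no more extreme values in this retina than genes at large.

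Markers of tissues around the retina, and of some cells within it, also stood apart in Wfs1-KO replicate 2. The summed level of 8 stromal fibroblast markers, none of them a collagen, was 1.95, 1.21 and 8.18 RPKM in WT and 2.01, 63.1 and 2.12 RPKM in mutant replicates 1, 2 and 3. Most of the sum in that retina came from Fbln1, at 39.2 RPKM, and Mfap4, at 21.8 RPKM. The same genes, at 5.66 and 1.33 RPKM, held most of the sum in WT replicate 3. Of the 8, 6 were highest in Wfs1-KO replicate 2, all but Mfap5 and Dpt, and Dpt was at 0 in at least 1 retina. WT replicate 3, with the second highest sum, was also the second highest retina for Col1a2 and Col18a1. For Col3a1 and Col8a1, WT replicates 1 and 2 came second.

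The 7 pigment cell markers summed to 5.13 to 7.85 RPKM in WT and to 4.12, 60.3 and 3.74 RPKM in the mutants, and 7 of 7 were highest in Wfs1-KO replicate 2. Surface epithelium markers of cornea and conjunctiva summed to 0.334 to 0.671 RPKM in WT and to 0.371, 33.2 and 0.859 RPKM in the mutants, with 6 of 7 highest in that retina and Krt14, Krt4 and Krt13 at 0 in at least 1 retina. Pigment epithelium markers summed to 71.2 to 97.7 RPKM in WT and to 65.2, 274.9 and 39.9 RPKM in the mutants. Ttr alone held 198 RPKM of the sum in Wfs1-KO replicate 2. Of the 9 members, 5 were highest in that retina, while Rpe65, Lrat, Best1 and Stra6 were not. Lrat, at 0.859 RPKM there, was below every WT retina. Red blood cell, macrophage and retinal astrocyte lists were 19.6, 5.70 and 3.86 times the mean of the other 5 retinas in Wfs1-KO replicate 2. Of their members, 5 of 5, 11 of 12 and 3 of 4 were highest there. Among the astrocyte markers, Gfap was above every WT retina in each mutant retina, whereas Pdgfra was lowest in Wfs1-KO replicate 2. Lens, skeletal muscle and myelin lists were 2.54, 2.07 and 1.43 times that mean, with 3 of 9, 5 of 7 and 2 of 8 members highest there. Mueller glia and rod photoreceptor lists were at 0.818 and 0.789 times that mean. Endothelium markers summed to 58.7 to 65.6 RPKM in WT and to 69.3, 91.4 and 67.3 RPKM in the mutants. Their members were split in Wfs1-KO replicate 2. Of the 10, 6 were highest there, with Cldn5 at 30.5 RPKM against 6.69 to 10.4 RPKM elsewhere, while Kdr, Cdh5, Tie1 and Tek were lowest there. The mural cell list was 1.58 times the mean of the other 5 in that retina, with 5 of 9 members highest. The part of these tissues and cells in the collagen values of Wfs1-KO replicate 2 was not tested.

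For Col19a1, Col1a1 and Col27a1 the differences were about as large without Wfs1-KO replicate 2, at log2 fold changes of 1.20, 0.88 and -0.56. For Col4a5 the difference was smaller without that retina, at -0.47 against -0.67 in all 6. In the 2 other mutant retinas the fibroblast list was at 2.01 and 2.12 RPKM, above WT replicates 1 and 2 and below WT replicate 3. The summed pigment epithelium list was lower in these than in any WT retina, at 65.2 and 39.9 RPKM, of which Ttr alone held 33.1 and 14.4 RPKM. Without Wfs1-KO replicate 2, 6 of its 9 members were lower and 1, Rrh, was higher at an unadjusted p under 0.05 (edgeR). Over all tested genes 2.39% were lower and 2.8% higher in that fit. Lrat was lower in both of these mutant retinas than in any WT retina (edgeR adjusted p = 0.0467 without Wfs1-KO replicate 2), Rrh was higher in both, and Best1 overlapped. Their part in the differences of these collagens was not tested.

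**Figure D5:**
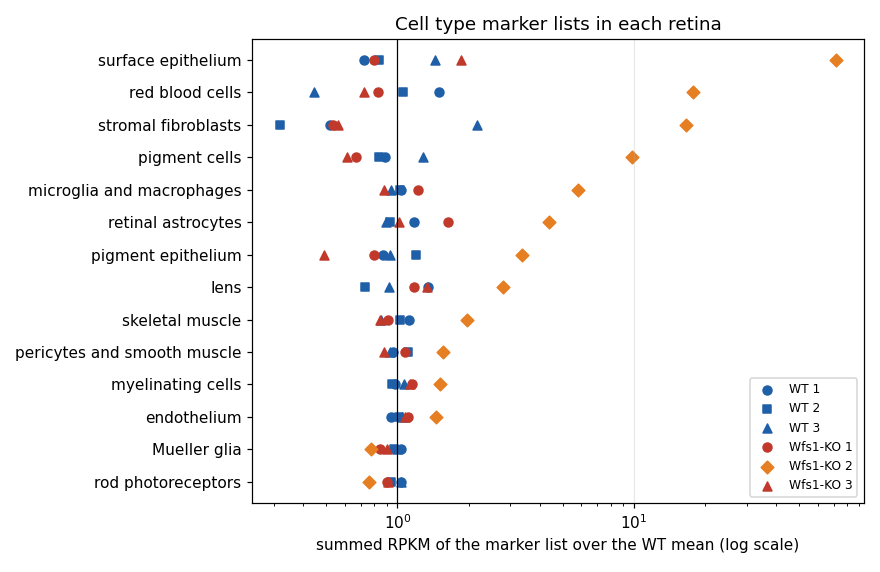
Summed RPKM of 14 cell type marker lists in each retina, divided by the mean of the 3 WT retinas, on a log axis. Wfs1-KO replicate 2 (orange diamonds) lies to the right of the other retinas for fibroblast, surface epithelium, blood and pigment cell lists, and to the left for rod photoreceptors and Mueller glia.

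Collagen RNA is only a first step, since chains are hydroxylated and folded in the endoplasmic reticulum, trimmed and cross-linked outside the cell, and removed by proteases. The 7 lists of such genes were compared by the same edgeR test. None of the 100 tested list members passed the adjusted threshold in all 6 retinas or without Wfs1-KO replicate 2. Genes of collagen folding and modification, among them the prolyl and lysyl hydroxylases and the chaperone Serpinh1, had 0 of 20 higher and 0 lower at an unadjusted p under 0.05, with a median log2 fold change of 0.01, and of -0.05 without Wfs1-KO replicate 2. Collagen receptors had 0 of 9 in either direction (median 0.12 in both fits), and laminins, nidogens and other non-collagen basement membrane components 0 of 15 (median 0.05, and 0.17 without Wfs1-KO replicate 2).

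Of 13 tested genes of procollagen processing and cross-linking, 2 were higher at an unadjusted p under 0.05, against 2.24% of all tested genes, Lox, which cross-links fibrils, and Pcolce, which enhances procollagen cleavage. Pcolce had 2.18, 1.83 and 3.44 RPKM in WT and 3.62, 24.8 and 2.67 RPKM in mutant replicates 1, 2 and 3, and its log2 fold change of 2.07 ± 0.85 (SE) became 0.37 ± 0.28 (SE) without Wfs1-KO replicate 2. Lox was at 0 to 0.0504 RPKM in WT and at 0.120, 0.287 and 0.0380 RPKM in the mutants. The genotypes overlapped for both.

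Of 14 tested genes of collagen breakdown, 1 was higher by this rule, again beside 2.24% of all tested genes, Timp1, an inhibitor of matrix metalloproteinases. It had 0.0339, 0.0947 and 0.128 RPKM in WT and 0.579, 5.60 and 0.563 RPKM in mutant replicates 1, 2 and 3. Every mutant retina was above every WT retina, by the widest margin in Wfs1-KO replicate 2. Its log2 fold change was 4.86 ± 1.22 (SE; edgeR adjusted p = 0.979), and 2.92 ± 0.72 (SE; edgeR adjusted p = 0.367) without that retina. Its WT levels were near the floor of 3 counts, so that the size of both values rests on few WT reads. The list's median was 0.12, and 0.03 without Wfs1-KO replicate 2.

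Of 14 tested fibril-associated proteoglycans and glycoproteins, Dcn (decorin) was the 1 gene higher by this rule (2.24% of all tested genes), with 5.21 RPKM in Wfs1-KO replicate 2 and 0.468 to 0.749 RPKM in the other 5. The median of this list was 0.50, and -0.03 without Wfs1-KO replicate 2. For the 15 tested genes of TGF-beta signaling, which controls transcription of many matrix genes, the median was 0.31 in all 6 retinas and 0.02 without Wfs1-KO replicate 2. Kera, a keratan sulfate proteoglycan of the cornea, was at 0 in all 6 retinas.

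Without Wfs1-KO replicate 2, 4 list members were higher at an unadjusted p, Timp1, Loxl4, Fn1 and Tnxb, and 3 lower, P4ha2, Mmp13 and Fap. Of 100 tested members these are shares near those of all genes tested without that retina, 2.8% higher and 2.39% lower. Of these, Loxl4, Fn1 and Fap were named after their values were seen. Fn1, which encodes fibronectin, had 2.38, 2.58 and 3.93 RPKM in WT and 4.66, 2.33 and 4.61 RPKM in mutant replicates 1, 2 and 3. As for Col4a3 and Col12a1, mutant replicates 1 and 3 were above every WT retina, and Wfs1-KO replicate 2 was not. Its log2 fold change was 0.39 ± 0.33 (SE), and 0.65 ± 0.20 (SE; edgeR adjusted p = 0.636) without that retina.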

How the data were processed

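Whole-retina RNA of 3 WT and 3 Wfs1-KO mice was sequenced. The authors trimmed reads (Trimmomatic 0.39, per the submitters' processing notes), mapped them to mm10 (STAR 2.5.3a), counted reads on exons per gene (featureCounts 1.6.4) and deposited raw counts per gene with exon lengths. The paper's methods give other versions, a column kit where the labels name Trizol, and DESeq2 on an RPKM matrix. Columns were matched to samples by name, reading C as control and W as Wfs1, and 2 further columns were left unused because no listed sample carries their name.

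Counts of all genes were fitted by genotype alone with edgeR 4.0.16 under R 4.3.3, after filterByExpr and TMM scaling, and quasi-likelihood p-values were adjusted by Benjamini-Hochberg over all tested genes. Standard errors (SE) were obtained as the absolute log2 fold change over the root of F. RPKM used the deposited exon length, which differed from that of GENCODE M21 for most of the 44 collagens. It was 5348 against 12426 bases for Col1a2 and 5104 against 9243 bases for Col2a1. For 9 of the 44 the position differed too. Levels between genes and the size of chain ratios therefore depend on that annotation. Total counts ranged from 17916885 to 101334381. Floors cover counting error only. The procedure was tested on simulated counts, drawn with a common spread for all genes and no outlying retina. That test therefore does not show how the fit performs on these data. Promoter sequences came from RefSeq windows. No protein sequence was used here.

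The collagens, their groups and all gene lists were chosen with earlier results of these data known. Collagens named with values in each retina are the 15 with the highest mean RPKM, those with an unadjusted p under 0.05 with or without Wfs1-KO replicate 2, all Col4 chains and Col18a1. Of each pathway list at most 5 members with the smallest unadjusted p could be named, and 1 result on a list member is not reported here. Others given with values for single retinas (Col1a2, Col3a1, Col11a1, Col15a1, Col6a4 and Col6a6) were chosen after their values were seen. Alternatives were DESeq2 1.42.0, limma-voom (limma 3.58.1), normalization by RLE or upper quartile, omission of the filter, a minimum of 10 counts per retina, the replicate number as a block (replicate block), leaving out retinas one by one, and DESeq2 without Wfs1-KO replicate 2.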

Additional observations from a re-analysis of the deposited data

How the results depend on the processing

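No collagen passed the adjusted threshold under any of the alternatives run. The count of collagens higher at an unadjusted p under 0.05, 2 in the reported fit, was 4 without a filter and 2 to 5 when each retina was left out in turn, 5 without WT replicate 3 and 4 without Wfs1-KO replicate 2. The count of lower ones, also 2, was 0 with limma-voom, 1 with upper-quartile normalization, 1 with at least 10 counts in every retina, 1 with the replicate block, 5 with DESeq2 without Wfs1-KO replicate 2, and 0 to 5 when each retina was left out: 0 without WT replicate 1 or Wfs1-KO replicate 3, 1 without WT replicate 3, 4 without Wfs1-KO replicate 2 and 5 without WT replicate 2. The fibrillar median of 0.13 was -0.25 with limma-voom and ranged from -0.28 without Wfs1-KO replicate 3 to 0.27 without Wfs1-KO replicate 1. The log2 fold change of Col8a2 was -0.14 with limma-voom, -0.12 with the replicate block and -0.69 with DESeq2 without Wfs1-KO replicate 2, and ranged from -0.69 to 0.44 with a retina left out. The cause was not tested. Of the named collagens, Col19a1 ranged from 0.86 to 1.50, Col1a1 from 0.88 to 1.10, Col27a1 from -0.68 to -0.41, Col4a5 from -0.85 to -0.47, Col12a1 from 0.27 to 0.77, Col4a3 from 0.54 to 1.97, Col7a1 from -0.80 to -0.30 and Col18a1 from 0.02 to 1.19, with the smallest adjusted p, 0.182, for Col19a1 in DESeq2 without Wfs1-KO replicate 2. Same-numbered retinas came from different mice and did not deviate together (correlations of deviations -0.234, -0.111 and 0.0784). Depth limits the low members: at 3 counts the shallowest library allows up to 0.0544 RPKM for Col10a1.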
